A study of Mus musculus with 21 samples.

Results

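A group of 4 connexin genes of the skin, Gja1, Gjb2, Gjb5 and Gjb6, were followed through 8 weeks of UV irradiation. The members were every probe set annotated to one of these 4 genes alone, which gave 9 probe sets of 45101 on the array, for 4 of 18194 genes with a probe set of their own. Gja1 was represented by 6 probe sets, and Gjb2, Gjb5 and Gjb6 by 1 each. All 9 reached the 20th percentile of every array and were among the 40540 probe sets tested. The arrays held dorsal skin RNA of female mice of the albino hairless strain Hos:HR-1, 6 weeks old on arrival. By the labels there were 7 groups of 3 animals with 1 array each, where the Methods count 6 groups. Controls that were never irradiated were taken at week 1 and at week 8, and UV-irradiated animals after 1, 2, 4, 6 or 8 weeks. UV weeks 2, 4 and 6 had no controls of their own week. In comparisons of UV weeks 2 to 8 with control week 1, UV and age cannot be told apart. Irradiated mice were exposed 3 times a week with a TL20W/12RS lamp, at a dose that grew by 1 MED (100 mJ/cm2) every week until it reached 4 MED. All groups carried the hairless background. Isoflurane was given before each irradiation, and the sources used here do not say whether controls received it, so that UV and anaesthesia cannot be told apart. The strain lacks a normal hair coat, which limits these mice as a model of haired skin. Whole skin was measured, so that a lower level from fewer cells of a type and one from less RNA per cell cannot be told apart.

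Connexins are membrane proteins that assemble in rings, and rings of neighbouring cells dock to form gap junction channels through which ions and small metabolites pass. The epidermis uses several of them in layers. Gja1 encodes connexin 43, the most widespread connexin of the skin, which is found in keratinocytes and also in fibroblasts, vessels and hair follicles. Gjb2 encodes connexin 26, Gjb6 connexin 30 and Gjb5 connexin 31.1, and variants of the human GJB2 and GJB6 genes are known causes of deafness and of skin disease.

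In the RefSeq annotation of the mouse genome (GRCm38.p6), Gja1 occupies chr10:56377300-56390419, Gjb5 lies at chr4:127354809-127358164, Gjb2 at chr14:57098602-57104702 and Gjb6 at chr14:57123301-57133611. Gjb2 and Gjb6 are neighbours on the same strand, with 18598 bases and 1 annotated gene, Gm32912, between them. The 250 bases before each gene start are shown so that the starts of the 4 genes can be set beside their courses under UV. They come from RefSeq, read 5′ to 3′ on the strand of the gene, from chr10:56377050-56377299 (plus strand) for Gja1, chr14:57104703-57104952 (minus) for Gjb2, chr4:127358165-127358414 (minus) for Gjb5 and chr14:57133612-57133861 (minus) for Gjb6. Capitals mark matches on either strand to the AP-1 motif TGANTCA, the GC box GGGCGG, the CCAAT box or the TATA box TATAAA.
Gja1: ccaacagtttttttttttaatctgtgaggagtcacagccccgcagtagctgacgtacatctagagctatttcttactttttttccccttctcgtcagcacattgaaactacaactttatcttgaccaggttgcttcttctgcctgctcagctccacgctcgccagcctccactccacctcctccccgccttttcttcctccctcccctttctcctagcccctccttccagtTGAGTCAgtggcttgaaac
Gjb2: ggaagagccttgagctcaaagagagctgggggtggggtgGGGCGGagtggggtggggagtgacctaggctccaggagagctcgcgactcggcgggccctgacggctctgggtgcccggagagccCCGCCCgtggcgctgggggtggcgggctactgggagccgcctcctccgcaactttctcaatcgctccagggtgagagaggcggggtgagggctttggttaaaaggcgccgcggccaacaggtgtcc
Gjb5: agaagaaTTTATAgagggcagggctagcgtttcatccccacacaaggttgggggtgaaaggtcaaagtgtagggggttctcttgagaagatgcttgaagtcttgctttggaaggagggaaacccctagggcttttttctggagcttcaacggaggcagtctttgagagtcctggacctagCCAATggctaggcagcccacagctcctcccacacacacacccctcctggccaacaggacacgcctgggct
Gjb6: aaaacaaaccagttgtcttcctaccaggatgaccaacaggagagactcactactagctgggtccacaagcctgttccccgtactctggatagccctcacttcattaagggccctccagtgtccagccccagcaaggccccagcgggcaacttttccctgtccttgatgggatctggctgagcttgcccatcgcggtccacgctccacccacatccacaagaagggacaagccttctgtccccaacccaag
The Gja1 window was the one of the 4 with an AP-1 match, TGAGTCA, which starts 19 bases before the gene start and ends close to it. Such a match is held by 6.75% of 32851 promoter windows of the same length. The Gjb2 window was rich in G and C (69.2%) and held 2 GC box matches, a motif found in 32.7% of windows. The Gjb5 window held a CCAAT box, as did 33.8% of windows, and a TATA box match far from the start, as did 12.4%. The Gjb6 window held no match to these 4 motifs. The motifs overlapped nowhere, and the array data contain no measurement of factor binding.

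Before the connexins are described, the arrays themselves need a word. Normalized array medians lay between 30.1 and 33.3, and arrays of 1 group correlated at 0.957 to 0.996 across probe sets. The log2 ratio of 3' to 5' beta-actin probe sets, a control of the array that is high where RNA is broken or was copied incompletely, exceeded 4 in 8 arrays: 1 of the control week 1 group, 2 of UV week 1, 1 of UV week 4, 2 of UV week 6 and 2 of UV week 8. Markers of skin were present throughout. The suprabasal keratin Krt10 had a mean log2 intensity of 14.33 in control week 1 and 14.31 in UV week 8, and the basal keratin Krt14 of 13.28 and 13.21. Other keratins of these layers read lower at UV week 8, with Krt5 at 12.43 and 11.10, Krt15 at 11.33 and 9.43, and Krt77 at 12.56 and 6.56. Fold changes below are differences of mean log2 intensity from a limma fit over all 21 arrays. A probe set was said to fall or rise where its Benjamini-Hochberg adjusted p was at most 0.05.

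The probe sets of Gja1 disagreed: 1415800_at fell at UV weeks 6 and 8, while 1437992_x_at, the brightest and by rule the leading one, passed in no comparison with controls. In control week 1 the log2 intensities of 1415800_at were 12.80, 12.90 and 12.66. In UV week 6 they were 11.81, 11.82 and 10.84, and in UV week 8 they were 11.87, 10.81 and 11.20. In both weeks every irradiated array lay below every control array of either week. Arrays of all probe sets tested separated in this way from control week 1 in 13.6% of cases at week 6 and 8.33% at week 8, and from control week 8 at week 8 in 9.82%. The change from control week 1 was −1.29 at UV week 6 (SE 0.25, adjusted p = 0.00517) and −1.49 at UV week 8 (SE 0.25, adjusted p = 0.00167). These groups stood at 40.8% and 35.6% of the intensity of control week 1, and control week 8 at 70.2%. Against the controls of the same week, whose arrays read 12.08, 12.33 and 12.41, the change at week 8 was −0.98 (SE 0.25, adjusted p = 0.0276), or 50.7% of their intensity. This last call was lost without control array 51, 53 or 55 or without UV array 552 or 555 (−1.08 to −0.74, adjusted p from 0.055 to 0.15). In a fit of the 2 compared groups alone neither change at week 8 passed (adjusted p = 0.0951 against control week 1 and 0.184 against control week 8).

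This probe set was 1 of 9 that fell at UV week 8, and 6.73% of all tested probe sets fell in that comparison. At UV week 6 it was again 1 of 9, with 6.3% of all probe sets lower, and against control week 8 it was 1 of 9 with 4.3%. With 1 of 9 called, the count of members is not a result by itself. The median change of the 9, of which 6 are of Gja1, was −0.22 at UV week 8 from control week 1, against a median of 0.09 over all tested probe sets. From control week 8 it was 0.07, against 0.09 over all. Between the controls, without UV, it was −0.28 at week 8 from week 1, against −0.002 over all. By limma none of the 9 rose in a comparison of UV with control groups, and none was higher there at an unadjusted p of 0.05 either. In the mean of all UV groups against the mean of both controls the Gja1 probe set fell by 0.68 on the log2 scale (SE 0.15, adjusted p = 0.00634), where 8.57% of all probe sets were lower.

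The earlier weeks gave smaller differences for this probe set. UV week 1 arrays read 12.21, 12.22 and 12.51, UV week 2 arrays 12.40, 12.13 and 12.50, and UV week 4 arrays 11.71, 11.70 and 12.06. All 9 lay below the 3 arrays of control week 1 (a separation seen for 7.85%, 6.48% and 9.22% of all probe sets at the 3 weeks), but those of weeks 1 and 2 overlapped the control arrays of week 8. The change from control week 1 was −0.47 at week 1 (adjusted p = 0.296), −0.44 at week 2 (adjusted p = 0.89) and −0.96 at week 4 (SE 0.25, adjusted p = 0.0702). Skin that was never irradiated also read lower at week 8 than at week 1, by −0.51, which did not pass (adjusted p = 1). In order of mean level, control week 1 stood first without overlap with the next group. UV week 2, UV week 1 and control week 8 followed close together. UV weeks 4, 6 and 8 came last, below the arrays of control week 8 and with arrays that overlapped each other. Whether the UV effect grew between weeks 1 and 8 was tested directly, each against the controls of its own week, and the difference of −0.51 did not pass (SE 0.35, adjusted p = 1).

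**Figure D1:**
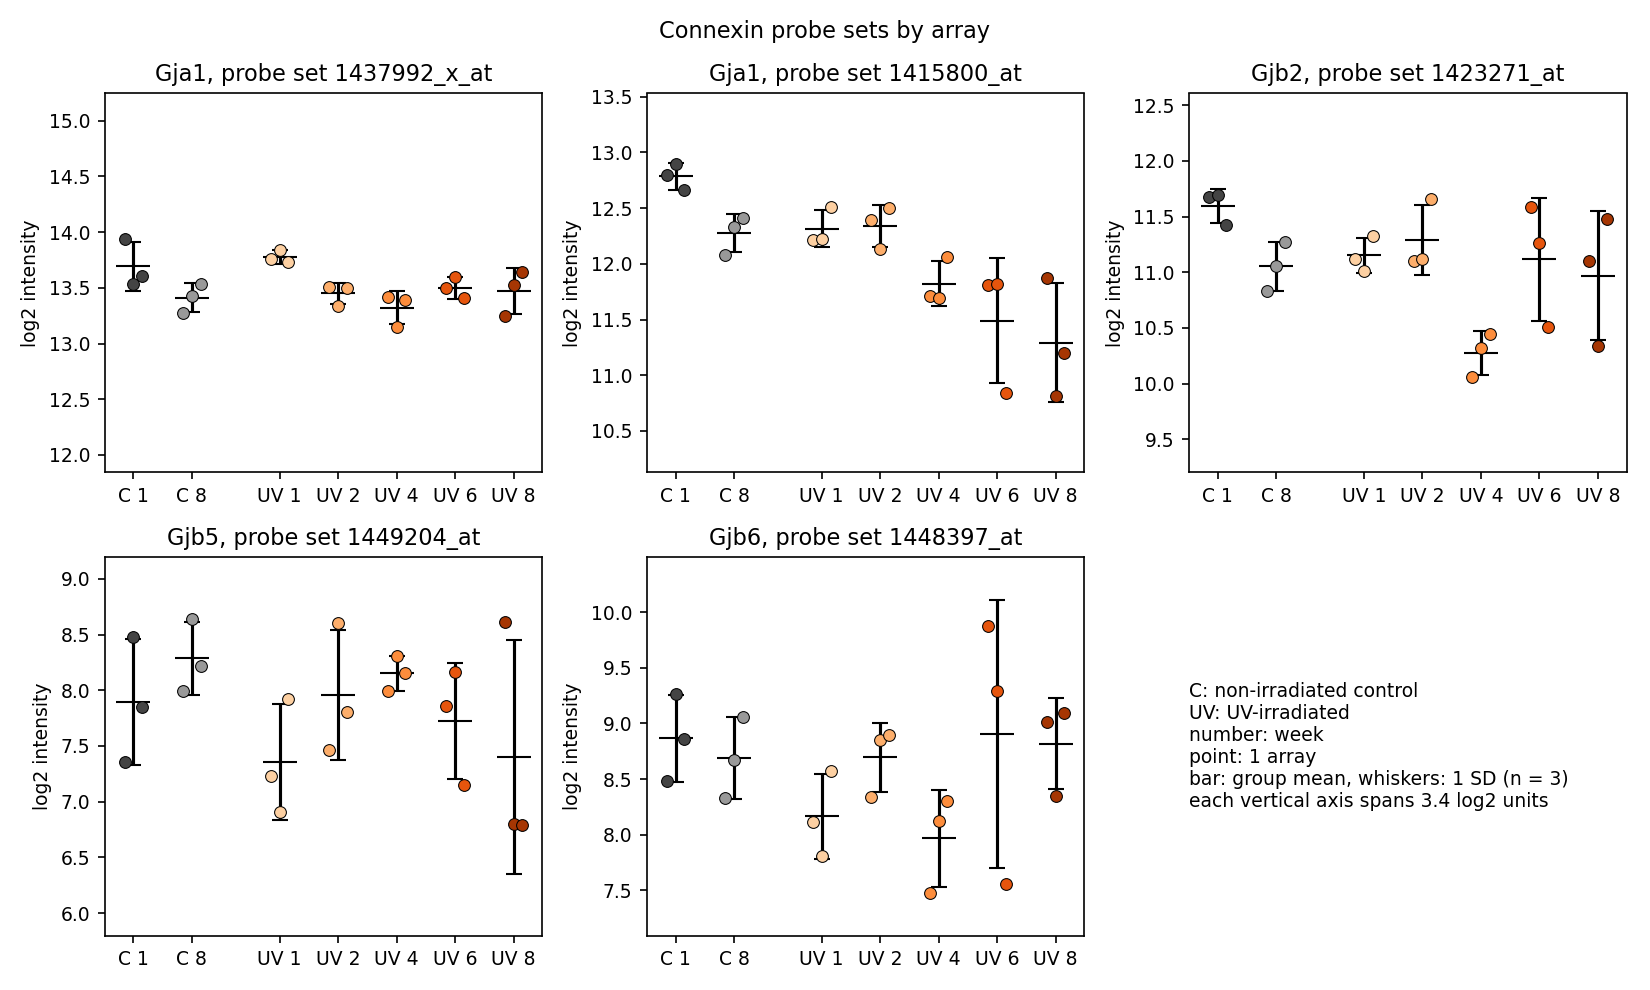
Log2 intensity of 5 connexin probe sets in every array (points, n = 3 for each group), with the group mean (bar) and 1 SD (whiskers). C is non-irradiated control, UV is UV-irradiated and the number is the week, and every vertical axis spans the same range. Gja1 1415800_at is lowest at UV weeks 6 and 8 (means 11.49 and 11.29), Gja1 1437992_x_at stays between 13.32 and 13.78, and Gjb2 is lowest at UV week 4 (mean 10.28).

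The other Gja1 probe sets did not share the fall at UV weeks 6 and 8. The leading 1437992_x_at read 13.94, 13.53 and 13.61 in control week 1. It read 13.50, 13.60 and 13.41 at UV week 6 and 13.24, 13.53 and 13.65 at UV week 8. The arrays of UV week 8 overlapped those of both control groups. Its change at UV week 8 was −0.22 from control week 1 (95% interval −0.50 to 0.06, adjusted p = 0.258) and 0.06 from control week 8 (interval −0.22 to 0.34, adjusted p = 0.781). Both intervals leave out a fall of the size seen with 1415800_at. The bright probe sets 1438945_x_at and 1438650_x_at gave −0.29 and −0.21 at UV week 8 against control week 1, and the dim 1438973_x_at and 1415801_at gave −0.12 and −0.03, with adjusted p from 0.203 to 0.913. At UV week 4 the change of 1437992_x_at from control week 1 was −0.37 (95% interval −0.65 to −0.09). In the same comparison 1438945_x_at gave −0.42, 1438650_x_at −0.32, 1438973_x_at −0.29 and 1415801_at −0.35. None of these changes at UV week 4 passed (limma, adjusted p from 0.231 to 0.43).

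Across the 21 arrays the 4 whose names end in _x_at, which marks probe sets with some probes that also match other transcripts, correlated with each other at r from 0.943 to 0.975. Their r with 1415800_at was from 0.207 to 0.394. The dim 1415801_at went with neither, at r from 0.178 to 0.207 with the 4 and −0.22 with 1415800_at. These correlations describe readings of the same arrays and carry no test. The gap between both readings was followed within each array as 1415800_at minus 1437992_x_at. In the control arrays the gap was −1.14, −0.63 and −0.95 at week 1 and −1.19, −1.09 and −1.12 at week 8. At UV week 6 it was −1.68, −1.78 and −2.56, and at UV week 8 it was −1.37, −2.72 and −2.45, below all 6 control arrays in every one of these 6 arrays. Over all UV arrays the mean gap was −1.65 ± 0.53 (SD, n = 15) against −1.02 ± 0.21 (SD, n = 6) in controls, with 13 of 15 below all controls. The gap was taken up because 1415800_at was seen to fall where 1437992_x_at did not, so it restates that difference and carries no test.

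The gap moved with the state of the RNA. Within groups it correlated with the beta-actin ratio at r = −0.73 over 21 arrays (permutation p = 0.00964, adjusted over 6 relations 0.0289) and at rho = −0.67 (permutation p = 0.0226, adjusted 0.0678). Array 552 of UV week 8 and array 445 of UV week 6 had the most extreme ratios, and with both left out r was −0.66. Among the arrays with a ratio of at most 4, the gap was −1.34 ± 0.275 (SD, n = 8) under UV and −0.999 ± 0.222 (SD, n = 5) in controls, a difference of −0.34 with 6 of 8 UV arrays below all controls, a subset chosen after the data had been seen. The fall of 1415800_at itself was −0.90 at UV week 8 against control week 1 in that subset (adjusted p = 0.051) and −0.40 against control week 8 (adjusted p = 0.38), where array 551 alone is left for UV week 8 and its spread is borrowed from the remaining groups. With the ratio as a covariate over all 21 arrays the change at UV week 4 passed (−0.91, adjusted p = 0.0147), and so did those at week 6 (−1.16, adjusted p = 0.00142), at week 8 (−1.28, adjusted p = 0.000969) and against control week 8 (−0.79, adjusted p = 0.0273). At UV week 6 the fall also passed in the low-ratio subset (−0.96, adjusted p = 0.0223), with 1 array left there.

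**Figure D2:**
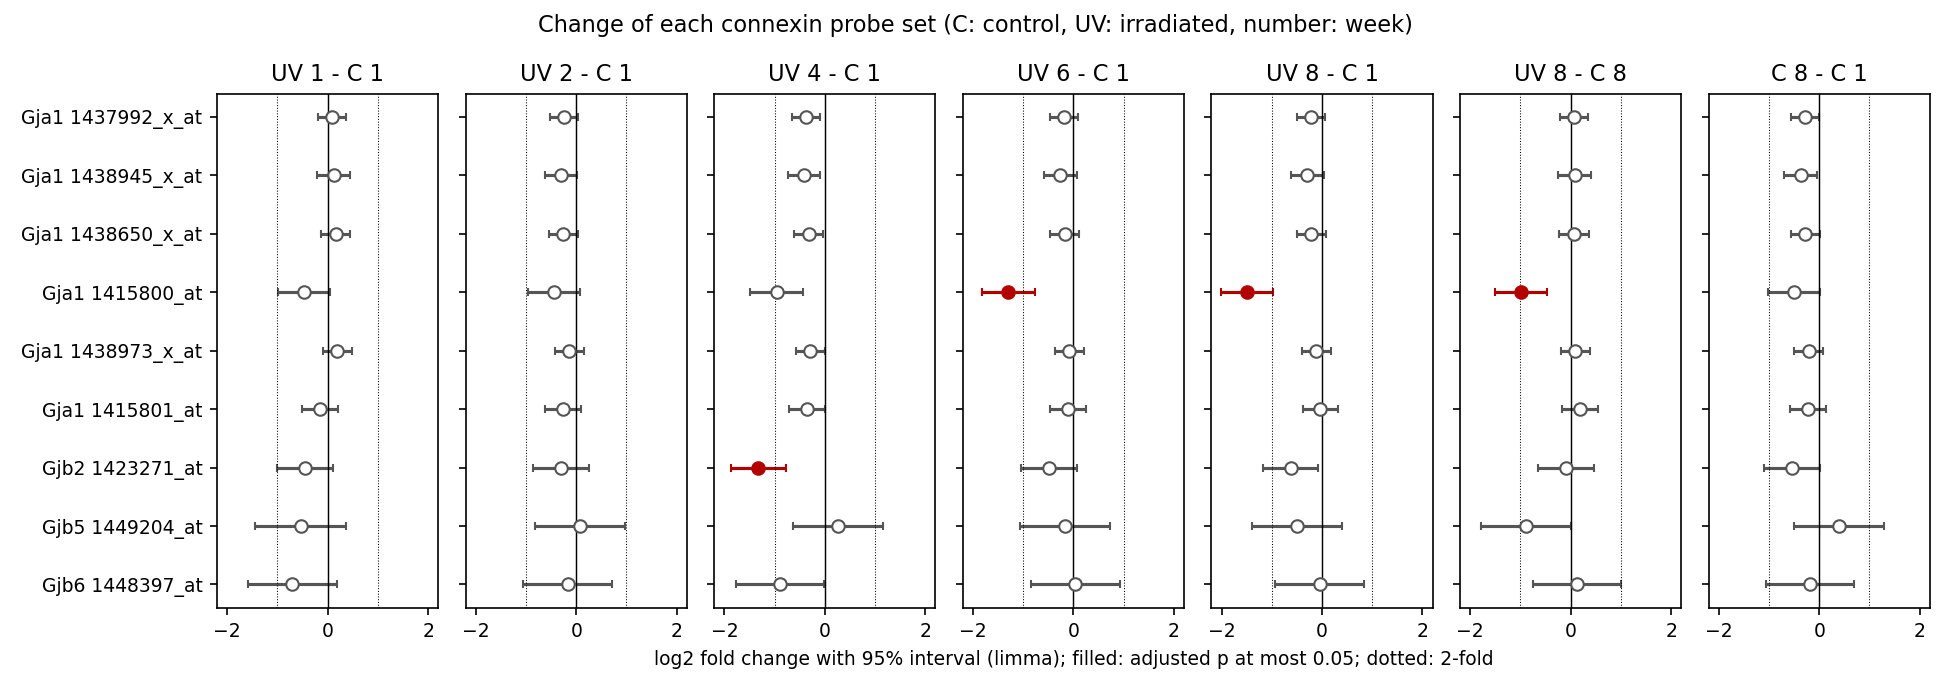
Log2 fold change with its 95% interval (limma) for each of the 9 connexin probe sets in 7 comparisons. Filled symbols have an adjusted p of at most 0.05 and dotted lines mark a 2-fold change. The filled symbols are Gja1 1415800_at at UV weeks 6 and 8 against control week 1 and at UV week 8 against control week 8, and Gjb2 at UV week 4.

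Gjb2 fell at UV week 4. Its log2 intensities were 11.67, 11.70 and 11.42 in control week 1 and 10.06, 10.32 and 10.44 in UV week 4. No array of another group reached down to this range except array 552 of UV week 8, at 10.33. The change from control week 1 was −1.32 (SE 0.26, adjusted p = 0.0153), or 40.0% of the intensity of control week 1, where control week 8 stood at 68.7%. This was 1 of 9 probe sets lower, beside 0.772% of all tested probe sets. The call rested on single arrays: without control array 13 the adjusted p was 0.078, without UV week 4 array 331 it was 0.0888 and without array 333 it was 0.0652, at changes of −1.27, −1.21 and −1.34.

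The groups sampled next, UV weeks 2 and 6, stood closer to the controls. Gjb2 read 11.10, 11.11 and 11.66 at UV week 2, and 11.58, 11.26 and 10.51 at UV week 6. The steps from week 2 to week 4 (−1.02, SE 0.26, adjusted p = 0.342) and from week 4 to week 6 (0.84, SE 0.26, adjusted p = 0.262) did not pass over all probe sets. At UV week 8 the arrays read 11.10, 10.33 and 11.47, and the change was −0.63 from control week 1 (interval −1.18 to −0.07, adjusted p = 0.117). Against control week 8, whose arrays read 10.83, 11.06 and 11.27, it was −0.09 (interval −0.64 to 0.47, adjusted p = 0.851). Control week 8 was itself −0.54 from control week 1 (adjusted p = 1). Except for UV week 4, neighbours in the order of group means overlapped, and UV week 4 overlapped UV week 8 by array 552 alone.

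Gjb6, the chromosomal neighbour of Gjb2, passed in no comparison. It read 8.48, 9.26 and 8.86 in control week 1, 7.48, 8.12 and 8.31 in UV week 4, and 9.01, 8.35 and 9.10 in UV week 8. The arrays of UV week 4 lay below all arrays of both control groups, with a change of −0.90 from control week 1 (SE 0.42, adjusted p = 0.406). The spread was widest at UV week 6, where the arrays read 9.87, 9.29 and 7.55. At UV week 8 the change was −0.05 from control week 1 (interval −0.93 to 0.83) and 0.13 from control week 8 (interval −0.75 to 1.01), and intervals of this width leave room for a change near 2-fold. At UV week 4, 6 of the 9 member probe sets lay below control week 1 without overlap, beside the 9.22% of all probe sets. They were 4 of Gja1 and those of Gjb2 and Gjb6, and the 4 of Gja1 are annotated to the same gene. In control week 8, which was never irradiated, 4 of the 9 also lay below control week 1 without overlap, those of Gjb2 and of Gja1. The share of all probe sets that separated between the controls is not given here.

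Gjb2 and Gjb6 rose and fell together from array to array. After group means were removed, their r over the 21 arrays was 0.83 (permutation p = 0.00027, adjusted over the 6 pairs of genes 0.00162) and rho was 0.83 (permutation p = 0.00013, adjusted 0.00078). Array 441 of UV week 6 and array 331 of UV week 4 had the most extreme Gjb6 levels, and with both left out r was 0.79. An r of this size was not particular to the pair. Of the 3 genes named below as most like Gjb6, Gtf2f2 and Tmem60 reached 0.91 and 0.89 with it within groups, and Aknad1 0.76. The 3 named for Gjb2 reached 0.63 to 0.76 with Gjb2. With group means kept, Gjb2 and Gjb6 had an r of 0.73. The pair Gjb5 and Gjb6 followed within groups at r = 0.56 (permutation p = 0.0104, adjusted 0.0313) and rho = 0.63 (permutation p = 0.00734, adjusted 0.0220), with r at 0.60 without arrays 441 and 331. Within groups Gjb5 moved with the beta-actin ratio, as given below. For Gjb6 the relation with that ratio did not pass, at r = −0.52 (permutation p = 0.0902, adjusted 0.135) and rho = −0.56 (permutation p = 0.0458, adjusted 0.0915). Without arrays 552 and 445 its r was −0.38. The part of the ratio in the pair Gjb5 and Gjb6 was not tested. Gja1 (1437992_x_at) and Gjb5 ran in opposite directions at r = −0.59, and rho = −0.53, which did not pass (permutation p = 0.0389 and 0.0477, adjusted 0.0778 and 0.0953), and the r of the other 3 pairs lay between −0.04 and 0.31.

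**Figure D3:**
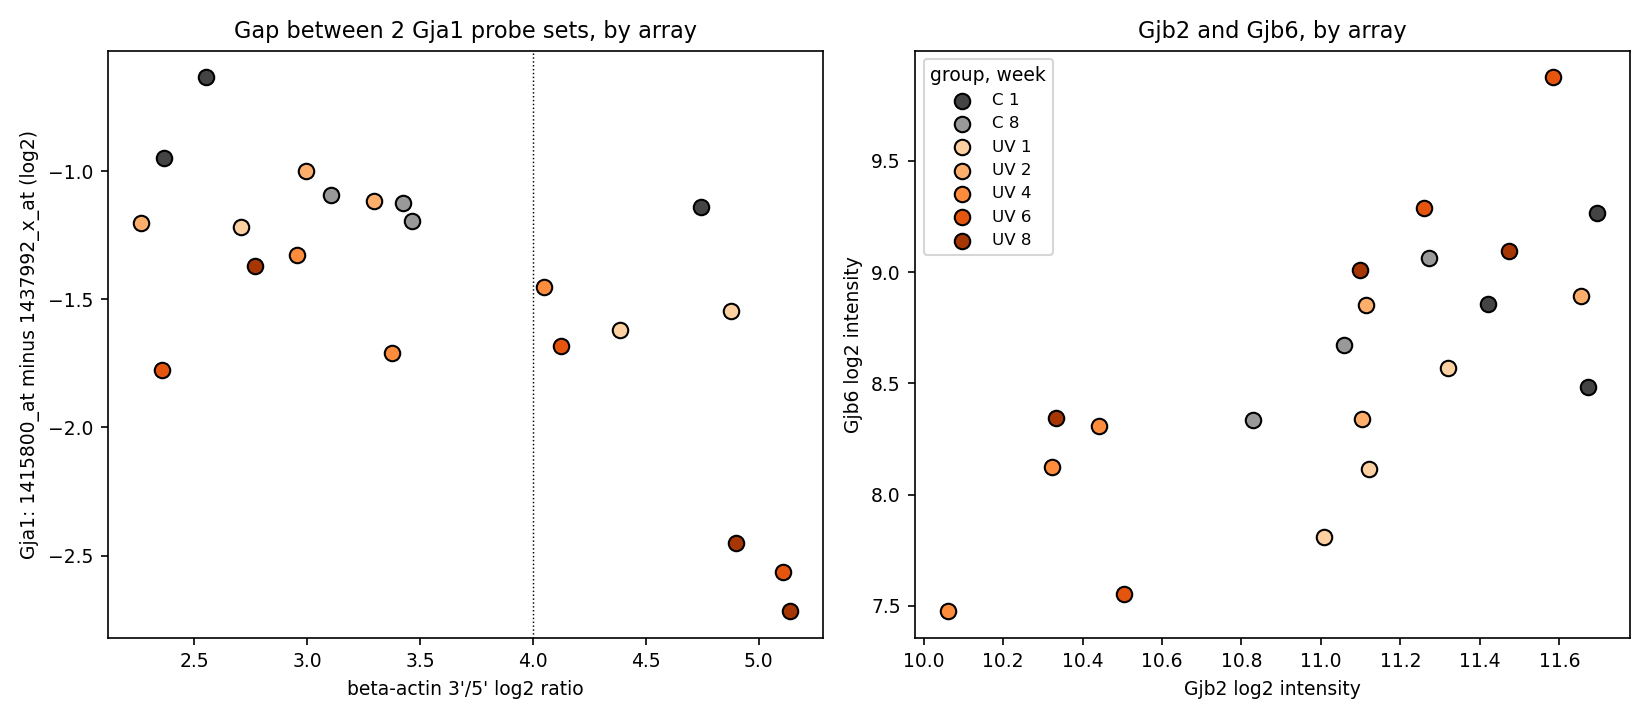
Left, the gap between Gja1 probe sets (1415800_at minus 1437992_x_at, log2) against the beta-actin log2 ratio (3' over 5') array by array, with a dotted line at a ratio of 4. Right, Gjb6 against Gjb2 log2 intensity. Each point is 1 array, coloured by group and week, with C for control. The gap is widest, −2.45 to −2.72, in 3 arrays of UV weeks 6 and 8 with a ratio above 4, and Gjb6 is high where Gjb2 is high.

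Gjb5, a connexin of the differentiating epidermal layers, also passed in no comparison. It read 7.35, 8.48 and 7.85 in control week 1, 7.99, 8.64 and 8.22 in control week 8, and 8.61, 6.80 and 6.79 in UV week 8. Array 551 of UV week 8 stood among the highest of all arrays, while arrays 552 and 555 of the same group were the lowest. The change at UV week 8 was −0.49 from control week 1 (SE 0.43, adjusted p = 0.434) and −0.88 from control week 8 (SE 0.43, adjusted p = 0.186). Without array 551 it was −1.10 (adjusted p = 0.0244) and −1.49 (adjusted p = 0.00552). The arrays that remain in UV week 8 then both have a beta-actin ratio above 4. Within groups Gjb5 followed that ratio at r = −0.82 (permutation p = 0.00114, adjusted over 6 relations 0.00684) and rho = −0.79 (permutation p = 0.00174, adjusted 0.0104), and r was −0.79 without arrays 552 and 445. With the ratio as a covariate the change at UV week 8 from control week 1 was 0.0038.

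None of the 4 genes showed a difference in its UV effect between weeks 1 and 8 that passed (adjusted p = 1 for all 9 probe sets). Their lowest adjusted p against control week 1 was 0.296 at UV week 1 and 0.828 at UV week 2, where 0.0123% and 0.0296% of all probe sets fell. At an unadjusted p of 0.05, 7 of the 9 probe sets were lower at UV week 4, of which 5 were of Gja1, beside 6.65% of all probe sets. At weeks 6 and 8 it was 1 and 2 of the 9, beside 14.2% and 13.9%. In control week 8 against control week 1, without UV, it was 2 of the 9, beside 2.62%.

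The genes with the course most like each member over the 21 arrays were taken from 17402 genes. For Gja1 (1437992_x_at) these were Bambi, a membrane protein that dampens TGF-beta signals (r = 0.89), the calpain protease Capn8 (r = 0.89) and 2310061N02Rik (r = 0.89), where the 99th percentile of all genes was 0.71. For Gjb2 they were the zinc transporter Slc39a6 (r = 0.80), Cibar1 (r = 0.79) and Bnc1, a zinc finger protein of basal keratinocytes (r = 0.78), against a 99th percentile of 0.58. For Gjb5 they were the adhesion receptor Adgrf4, the interleukin receptor chain Il20rb and Pdlim2 (r = 0.95, 0.94 and 0.94), where the 99th percentile already was 0.87. For Gjb6 they were Aknad1, Tmem60 and the transcription factor subunit Gtf2f2 (r = 0.78, 0.77 and 0.77), against 0.58. The points share arrays, normalization and RNA state, and these values are descriptions.

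Of 16 other connexin genes listed, 9 had a tested probe set. By limma none of the 9 passed at any UV week against control week 1 or at week 8 against control week 8. At an unadjusted p of 0.05, 1 was lower and 2 were higher at UV week 8 against control week 1, and 4 were higher against control week 8. Of all probe sets 13.9% were lower and 17.3% higher in the first comparison, and 15.1% were higher in the second. The median change of the 9 was 0.25 at UV week 8 against control week 1 and 0.33 against control week 8, beside 0.09 over all probe sets in both. Most of the 9 were dim: by mean level they stood from percentile 14.9 (Gjc3) to 70.9 (Gjc1). Apart from Gjc1 only Gja4, at 51.6, stood above the median of the tested probe sets. In the mean of all UV groups against the mean of both controls Gjd2, known as a connexin of neurons, rose by 0.33 (SE 0.11, adjusted p = 0.0474), from a low level. The connexins of vessels are Gja4, Gja5 and Gjc1. At UV week 8 against control week 1, Gja4 gave −0.38 (adjusted p = 0.159) and Gjc1 −0.38 (adjusted p = 0.207). Gja5, at a low level (percentile 18.4), gave 0.19 there (adjusted p = 0.452).

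Pannexins resemble connexins in shape but form channels in a single membrane. Panx3, which is known from cartilage, bone and skin, rose. Its mean log2 intensity was 6.62 ± 0.23 (SD, n = 3) in control week 1, 7.54 ± 0.48 in control week 8, 8.46 ± 0.05 in UV week 4, 8.36 ± 0.56 in UV week 6 and 8.55 ± 0.09 in UV week 8. All arrays of these 3 UV weeks lay above those of control week 1, and those of UV week 8 also above those of control week 8. The change from control week 1 was 1.84 at UV week 4 (adjusted p = 0.000854), 1.74 at week 6 (adjusted p = 0.00106) and 1.93 at week 8 (SE 0.25, adjusted p = 0.000289). Against control week 8 it was 1.01 (SE 0.25, adjusted p = 0.0263), which did not pass without control array 51 or 55 or UV array 552 or 555 (0.73 to 1.14, adjusted p from 0.0626 to 0.109). Nor did it pass in the fit of the 2 groups alone (adjusted p = 0.164) or without arrays of beta-actin ratio above 4 (1.07, adjusted p = 0.122). Control week 8 read 0.92 above control week 1 without UV, which did not pass (adjusted p = 0.342). Panx1, the widespread pannexin, gave −0.39 at UV week 8 against control week 1 (adjusted p = 0.0662).

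Among genes whose products bind connexins or act on their turnover, 20 were measured. Of these, 4 fell and none rose at UV week 8 against control week 1 (limma), and the other 16 did not pass. Of all tested probe sets 6.73% fell in that comparison. At an unadjusted p of 0.05, 8 of the 20 were lower and 1 was higher, beside 13.9% and 17.3% of all probe sets. Their median change was −0.20. Nedd4, a ubiquitin ligase that marks connexin 43 for removal, fell by 1.65 on the log2 scale (SE 0.34, adjusted p = 0.00647), and Smurf2, another ubiquitin ligase, by 0.59 (SE 0.13, adjusted p = 0.00919). The caveolins, scaffold proteins of membrane pits, fell too, Cav1 by 0.63 (SE 0.13, adjusted p = 0.00555) and Cav2 by 0.69 (SE 0.18, adjusted p = 0.0215). All 4 also fell against control week 8, with changes of −1.36 for Nedd4, −0.50 for Smurf2, −0.45 for Cav1 and −0.72 for Cav2 (adjusted p from 0.0274 to 0.0426), and every UV week 8 array lay below every control array of that week. In that comparison 4.3% of all probe sets fell and 9.82% separated in this way. At UV week 6 the actin-binding drebrin Dbn1 rose by 0.59 (adjusted p = 0.02) beside the same 4 genes, which fell, as did 6.3% of all probe sets. The Dbn1 call was lost without array 13 or 445 (adjusted p = 0.0881 and 0.0831), without arrays of beta-actin ratio above 4 (adjusted p = 0.175) and in the fit of the 2 groups alone (adjusted p = 0.0538). At that week Nedd4 and Cav2 were lost without array 13, 16 or 445 (adjusted p from 0.0603 to 0.158), Cav1 without array 13 (adjusted p = 0.0529), Cav1 and Cav2 in the fit of the 2 groups alone (adjusted p = 0.0534 and 0.0989), and Cav2 under quantile normalization (adjusted p = 0.0524). The falls of Nedd4 and Smurf2 at UV week 8 against control week 1 were lost without array 555 (−1.35 and −0.45, adjusted p = 0.0512 and 0.0655), that of Cav2 without array 13, 16, 552 or 555 (−0.71 to −0.57, adjusted p from 0.0688 to 0.125), and against control week 8 none of the 4 passed without any 1 of control arrays 51, 53 and 55. In fits of the 2 groups alone none of the 4 passed at UV week 8 against either control (adjusted p from 0.172 to 0.237). Without arrays of beta-actin ratio above 4, Smurf2 (adjusted p = 0.289) and Cav2 (adjusted p = 0.123) were lost against control week 1 and all 4 against control week 8 (adjusted p from 0.141 to 0.516). Under quantile normalization Cav1 (adjusted p = 0.0959) and Smurf2 (adjusted p = 0.089) were lost against control week 8.

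**Figure D4:**
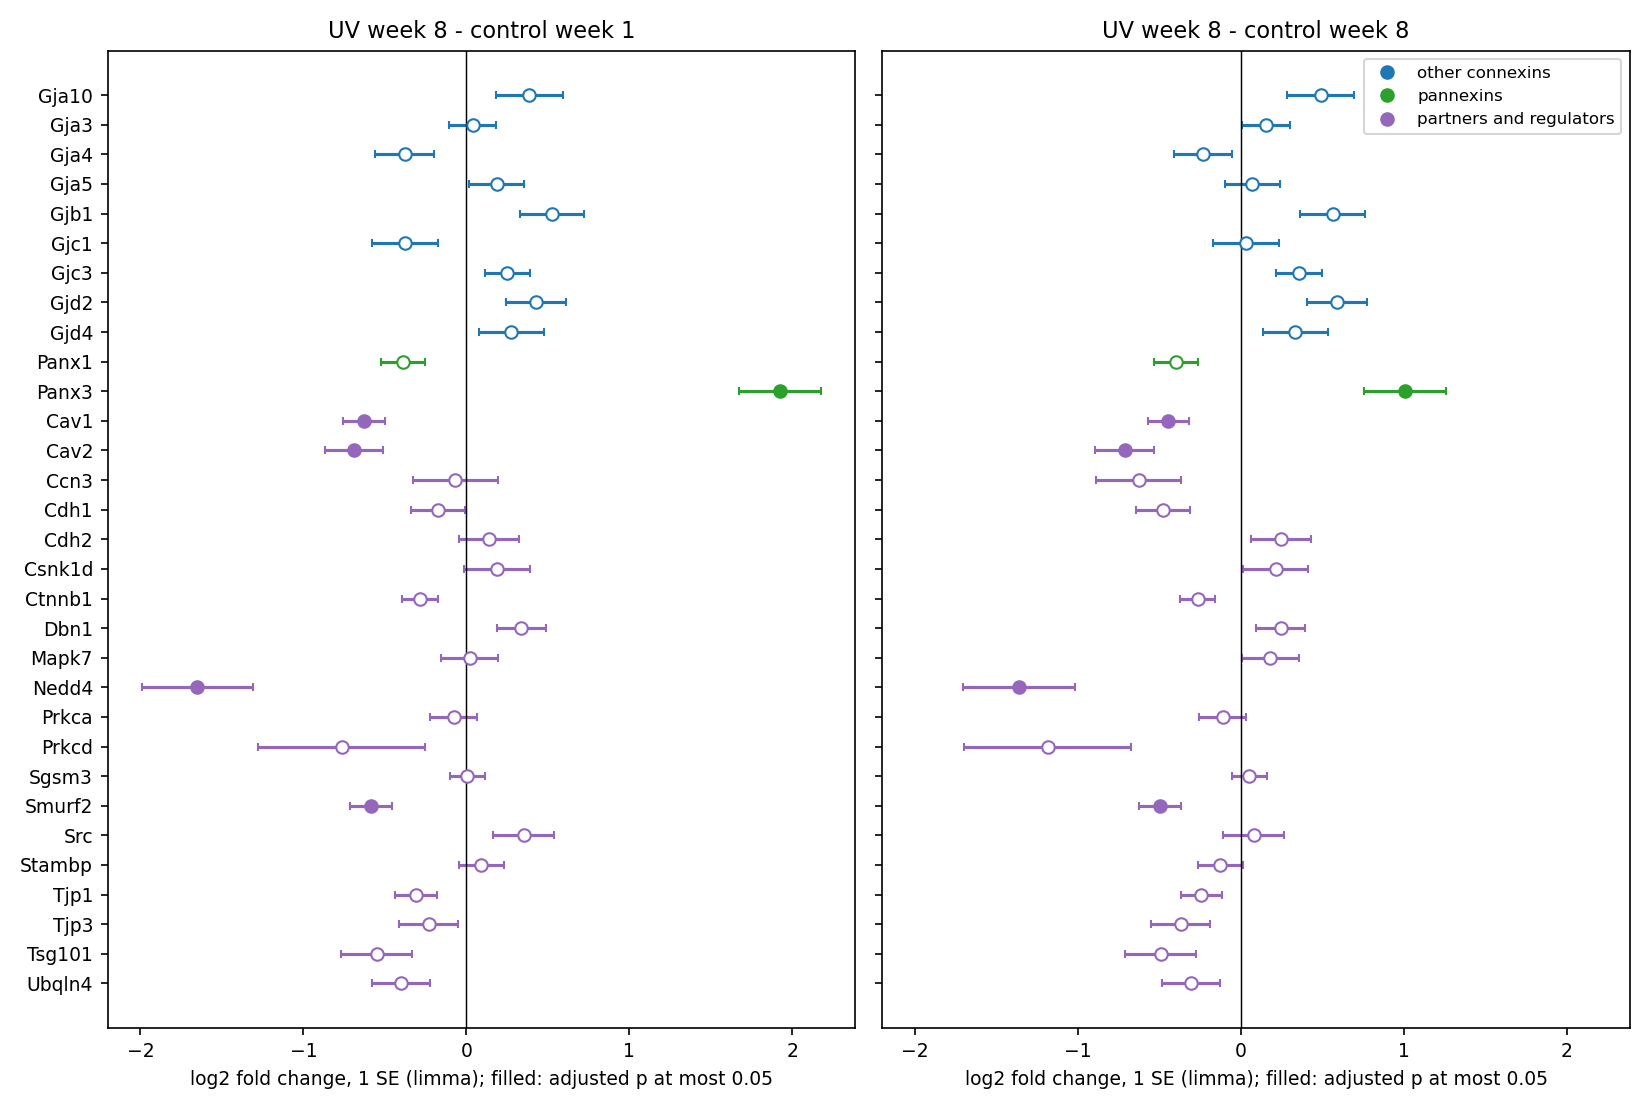
Log2 fold change with 1 SE (limma) of other connexins, pannexins and connexin partners or regulators at UV week 8, against control week 1 (left) and control week 8 (right). Filled symbols have an adjusted p of at most 0.05, and they are Panx3, Cav1, Cav2, Nedd4 and Smurf2 in both panels.

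Marker genes of several cell types of the skin also changed in these arrays. Of 14 hair follicle markers 13 fell at UV week 4 (median −4.29), 10 at week 6 and 12 at week 8 (median −3.63), with 5 lower against control week 8. Of all tested probe sets 0.772%, 6.3%, 6.73% and 4.3% fell in these comparisons. In control week 8 from control week 1, without UV, the median change of the 14 hair follicle markers was −1.36. There 9 of the 14 were lower at an unadjusted p of 0.05, beside 2.62% of all probe sets, and none passed. The log2 of their summed intensities was 15.02 to 15.68 in control week 1, 9.15 to 12.98 in UV week 4 and 9.58 to 12.88 in UV week 8. The lowest array was of UV week 4, where the median was 9.61, and the median of UV week 8 was 12.57. None of 7 basal epidermal markers passed at UV week 4, and 2 of 7 fell at UV week 8, Krt15 and Trp63. Their summed log2 level was 13.94 to 14.72 in control week 1 and 13.00 to 14.88 in UV week 8. Of 8 resting suprabasal markers 1 fell at UV week 4 and 2 at week 8, and of 8 markers of activated epidermis 2 rose at week 8. Against control week 8 the basal, suprabasal and activated counts were again 2 of 7, 2 of 8 and 2 of 8. The share of all probe sets that rose at an adjusted p of 0.05 is not given here. At UV week 8 against control week 1, fibroblast markers fell in 3 of 7, adipocyte markers in 3 of 4 and skeletal muscle markers in 4 of 6. Endothelial markers fell there in 2 of 6, smooth muscle markers in 1 of 5 and leukocyte markers in 1 of 7, beside 6.73% of all probe sets. Against control week 8 these counts were 2 of 7, 0 of 4, 2 of 6, 1 of 6, 0 of 5 and 1 of 7, beside 4.3%. Adipocyte markers had a median change of −0.83 in control week 8 from control week 1, where none passed. Of 5 sebaceous gland markers 1 rose there, and none of 5 cycling cell markers or of 3 Schwann cell markers passed. The part of these markers, and of the RNA state, in the connexin values was not tested.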

How the data were processed

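RNA of mouse dorsal skin was measured on 21 Affymetrix arrays, 7 groups of 3. The deposited values are linear probe set intensity, summarized and normalized by the authors. A Microarray Suite 5 preprocessor of Expression Console is named in their Methods and RMA in the submitters' processing notes. The lowest value was 4.35. Such processing leaves no counts, so the number of arrays limits the precision. Groups were taken from the labels.

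Intensities were floored at 1 and log2 transformed. Probe sets below the 20th percentile on all arrays and 64 control probe sets were left out, and 40540 of 45101 were tested with limma 3.58.1 (R 4.3.3; lmFit and eBayes, 1 mean per group, 14 residual degrees of freedom), with Benjamini-Hochberg adjustment over each of 13 comparisons. A probe set passed at an adjusted p of at most 0.05. A gene was led by its probe set of highest mean. For Gja1, 1415800_at, the brightest probe set without the _x_at ending, was followed beside it, a choice made after its values were seen. Of the tested probe sets, 32317 carried 1 gene symbol, 853 several and 7370 none. Array relations used 100000 permutations within groups (scipy 1.17.1, numpy 2.4.6, pandas 2.3.3, Python 3.11.15) and figures matplotlib 3.10.9. Named genes are the 4 members, tested relatives that passed, partners that passed at UV week 8, and the 3 genes most alike to each member; Gja4, Gjc1, Panx1, Dbn1 and marker genes were named after their values were seen. The members and lists were chosen with earlier results of these data known. Alternatives were no filter, a filter in 3 arrays, quantile normalization, fits of the compared groups alone, leaving out arrays, RNA ratios as covariates, other baselines and other probe sets.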

Additional observations from a re-analysis of the deposited data

How the results depend on the processing

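No paired analysis was possible because no array number occurs in more than 1 group. The filters on low values changed no call of a connexin. Values below are log2 fold changes against control week 1 unless another group is named, and the cause of a change was not tested. The fall of Gja1 1415800_at at UV week 4 passed under quantile normalization (−0.94), in a fit of the 2 groups alone (−0.96), with the beta-actin (−0.91) or Gapdh ratio (−0.97) as covariate, and without arrays of beta-actin ratio above 4 (−0.89), where Gjb6 passed too (−1.17), so that 2, 2, 2, 2 and 3 of the 9 probe sets fell. At UV week 8 the fall was lost in the fit of 2 groups alone (−1.49, adjusted p = 0.0951) and without high-ratio arrays (−0.90), as was that against control week 8 (−0.98 and −0.40), leaving 0 of 9. Gjb5 passed against control week 8 with the Gapdh ratio (−1.07), giving 2 of 9. The share of all probe sets that fell under each of these settings was not computed, so these counts of members are not a result by themselves. In place of Gja1 1437992_x_at, probe set 1415800_at gave −0.47 at UV week 1, −1.29 at week 6, −1.49 at week 8, −0.98 against control week 8 and 0.027 from UV week 1 to 2, 1415801_at gave −0.14 at week 1, and the mean of the 6 gave −0.0077 at week 1, −0.39 at week 8 (adjusted p = 0.0339) and −0.083 against control week 8.

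Values that did not pass changed sign as follows. Quantile normalization gave 0.017 for Gjb5 at week 6, 0.12 for Gjb6 at week 8 and 0.055 for Gjb2 against control week 8. The beta-actin covariate gave −0.11, 0.13 and 0.0038 for Gjb5 at weeks 2, 6 and 8, 0.26 for Gjb6 at week 8 and 0.0024 for Gjb2 against control week 8, and the Gapdh covariate gave −0.15 for Gjb5 at week 2. Without high-ratio arrays Gjb5 gave −0.20, −0.089 and 0.45 at weeks 2, 4 and 8 and 0.33 against control week 8, Gja1 1437992_x_at 0.030 at week 6 and −0.17 against control week 8, and Gjb2 0.044 against control week 8. With both controls as baseline Gjb5 at week 2 was −0.13 and Gjb6 at week 8 was 0.039.

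With each array left out in turn, Gja1 1415800_at ranged from −1.08 to −0.90 at UV week 4 (0.0702 with all arrays, passing without array 445, 551 or 552) and from −1.27 to −0.74 against control week 8, where it was lost without array 51, 53, 55, 552 or 555. Gjb2 at UV week 4 ranged from −1.41 to −1.21, and the number of lower probe sets from 0 to 2 at UV week 4, from 1 to 2 at UV week 8 and from 0 to 2 against control week 8. Shares over all probe sets were not computed for these fits either. Gjb5 ranged from −0.26 to 0.36 at UV week 2, from −0.011 to 0.55 at week 4, from −0.44 to 0.12 at week 6, from −1.10 to −0.19 at week 8 and from −1.49 to −0.58 against control week 8. Gjb6 ranged from −0.37 to 0.025 at UV week 2, from −0.45 to 0.71 at week 6, from −0.24 to 0.19 at week 8, from −0.049 to 0.36 against control week 8 and from −0.37 to 0.020 between the controls. Gja1 1437992_x_at ranged from −0.025 to 0.17 and Gjb2 from −0.34 to 0.23 against control week 8.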
